A study of Mus musculus with 17 samples.

Results

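A set of 34 genes of glucose entry, glycolysis, the pentose phosphate pathway and glycogen metabolism was followed in mouse epididymal white adipose tissue. Members were found by a probe's RefSeq accession or, where that gave no match, by its gene name on the array. A gene was represented by its brightest probe among those that rose well above background in Cy5 on 8 or more of 17 arrays. By that rule 33 of the 34 could be tested, among 18134 genes tested in all. The exception was Gapdh, the dehydrogenase that oxidises glyceraldehyde 3-phosphate, whose only probe under that name was well above background on 0 arrays, so that it has no value here. Pkm appears on the array as Pkm2 and Pgls as Bcnp1. The array's probes named Pgm1 and Pgm2 carry RefSeq accessions of the other gene, and both genes are called here by their RefSeq symbols. Of the 33 genes, 31 were well above background on all 17 arrays. Aldoc was so on 15 and Pgm2 on 11, and no member had a saturated spot.

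White adipocytes take up glucose through the transporter GLUT4, the product of Slc2a4, which insulin brings to the cell surface. The glucose is phosphorylated by hexokinases and passes down glycolysis to pyruvate and lactate, which also supplies the glycerol backbone of triglycerides. The oxidative arm of the pentose phosphate pathway yields NADPH for fatty acid synthesis, and the non-oxidative arm exchanges sugar phosphates with glycolysis. Adipocytes hold a small store of glycogen, built by glycogen synthase and branching enzyme and broken down by glycogen phosphorylase.

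The tissue came from adult male C57BL/6J mice, the wild type, kept for 13 weeks on a purified diet with 30% of its energy as fat. In both groups the diet was high in fat, and the groups differed in the glycemic index of the carbohydrate, low (LGI, 8 arrays) or high (HGI, 9 arrays). Each array carried the Cy5-labelled RNA of 1 sample and a Cy3-labelled pool of all LGI and HGI samples, so that every value is log2 of Cy5 over Cy3 and every difference is HGI minus LGI. The samples are numbered as replicates in the labels and nothing more is said of the animals. The p-values below therefore cover the spread between these samples, which may be in part technical. In whole tissue, fewer cells of a type and less RNA per cell cannot be told apart.

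In Cy5, 54.2% to 66.7% of an array's gene spots rose well above background. Precision is limited by how many arrays there are. All 12 adipocyte markers were well above background on all 17 arrays. HGI 9 and HGI 10 stood apart: the correlation of log ratios was 0.81 between this pair, -0.05 to 0.14 between either of them and the remaining 15 arrays, and 0.37 to 0.83 among those 15. The mean of 6 seminal vesicle genes was 1.43 on HGI 9 and 1.45 on HGI 10, and between -4.04 and -3.71 on the other 15. Results are therefore given with and without these 2 arrays. By order of scanning within 1 day, the arrays divide into the first 8 (4 LGI, 4 HGI) and the later 9 (4 LGI, 5 HGI), and the median Cy5 signal of a spot was 165.3 to 184.9 on the first 8 and 127.4 to 154.7 on the later 9.

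None of the 33 genes differed between the diets at an adjusted p of 0.05 (limma with Benjamini-Hochberg adjustment over all genes), the same as for the genes as a whole, of which 0 were called (0%). The lowest adjusted p among the 33 was 0.520 and the highest 0.996. The differences were small: 29 of 33 lay within 0.2 on the log2 scale, with 95% confidence intervals reaching 0.12 to 0.48 on either side. Levels were lower in HGI for 22 genes (66.7%), where 47.4% of all genes were below 0, and the median difference was -0.05, against 0.01 over all genes. An unadjusted p under 0.05 was reached by 4 of the 33 (12.1%), against 7.74% of all genes. All 4 were lower in HGI: the branching enzyme Gbe1, the transporter Slc2a3, the transketolase Tkt and the phosphorylase Pygl. Over all genes that p was reached by 3.78% in the lower direction and 3.96% in the higher. The members' count of 4 was 2 without LGI 2, LGI 4 or HGI 4 and 6 without LGI 7 or LGI 9, and 2 with median centring, 6 with the mean of a gene's probes, 7 with array weights and 0 among the first 8 arrays scanned.

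Without HGI 9 and HGI 10 the lower share was 18 of 33 (54.5%), against 49.9% of all genes, and the median was -0.02. At that setting 3 members (9.09%) had an unadjusted p under 0.05, against 7.79% of all genes. With each array centred on its median in place of the intensity-dependent (loess) normalization, 17 of the 33 were below 0, against 41.1% of all genes. The excess of lower members was thus smaller without those 2 arrays and with that normalization.

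**Figure D1:**
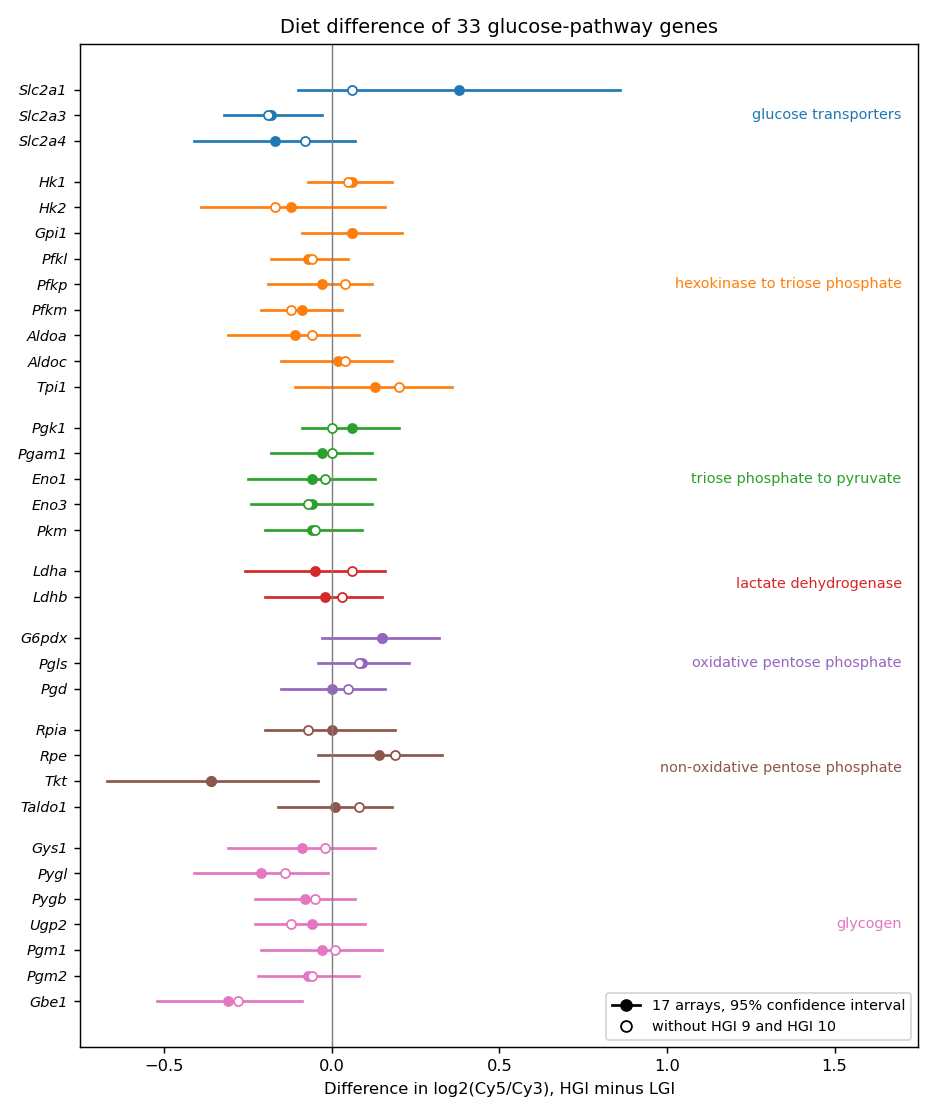
Difference in log2(Cy5/Cy3) between HGI and LGI (horizontal axis) for each of the 33 genes, ordered by pathway branch; filled points with bars are the 17 arrays with 95% confidence intervals, and open points leave out HGI 9 and HGI 10. The intervals of Gbe1, Pygl, Tkt and Slc2a3 lie below 0 before adjustment for the number of genes, and the open point of Slc2a1 lies at 0.06 against 0.38 with all arrays.

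The 250 bases upstream of the transcription start are shown for 6 members. Gbe1, Pygl and Tkt had an unadjusted p under 0.05, and Gys1 is a glycogen gene set beside the adipocyte markers below. The others are Slc2a1, the most variable member, and Ldha, a textbook target of the hypoxia response. The sequences are RefSeq promoter windows of assembly GRCm38.p6, written 5′ to 3′ on the gene's strand. Capitals mark ACGTG, the core of the hypoxia response element, and GGGCGG, the GC box, on either strand. For Ldha the first of its 2 windows is shown.
Gbe1 (branching enzyme), chr16:70313699-70313948, plus strand: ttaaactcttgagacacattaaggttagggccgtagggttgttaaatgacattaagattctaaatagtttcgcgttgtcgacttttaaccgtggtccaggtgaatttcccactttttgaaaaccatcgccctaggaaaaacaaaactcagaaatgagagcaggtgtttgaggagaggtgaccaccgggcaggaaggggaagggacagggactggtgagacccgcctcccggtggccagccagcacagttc
Pygl (glycogen phosphorylase), chr12:70227684-70227933, minus strand: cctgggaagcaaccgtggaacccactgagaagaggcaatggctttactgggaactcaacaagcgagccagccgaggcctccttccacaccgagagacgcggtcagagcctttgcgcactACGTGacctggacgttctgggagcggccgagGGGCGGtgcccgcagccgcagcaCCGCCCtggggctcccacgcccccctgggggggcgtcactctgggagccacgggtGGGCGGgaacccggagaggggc
Gys1 (glycogen synthase), chr7:45434589-45434838, plus strand: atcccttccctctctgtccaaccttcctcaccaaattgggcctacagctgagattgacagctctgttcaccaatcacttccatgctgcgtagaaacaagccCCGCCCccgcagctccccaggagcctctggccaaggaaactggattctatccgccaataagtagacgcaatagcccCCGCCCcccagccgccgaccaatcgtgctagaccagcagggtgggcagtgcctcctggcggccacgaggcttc
Tkt (transketolase), chr14:30548881-30549130, plus strand: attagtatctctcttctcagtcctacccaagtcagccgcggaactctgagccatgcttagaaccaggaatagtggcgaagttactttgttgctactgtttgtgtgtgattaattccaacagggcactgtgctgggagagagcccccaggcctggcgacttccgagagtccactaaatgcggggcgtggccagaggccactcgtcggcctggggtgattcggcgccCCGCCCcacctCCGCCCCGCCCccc
Slc2a1 (glucose transporter), chr4:119108495-119108744, plus strand: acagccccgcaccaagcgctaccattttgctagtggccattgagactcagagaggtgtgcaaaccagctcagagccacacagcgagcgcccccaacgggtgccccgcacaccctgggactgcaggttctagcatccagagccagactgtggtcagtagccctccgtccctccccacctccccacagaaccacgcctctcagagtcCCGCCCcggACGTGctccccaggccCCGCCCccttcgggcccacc
Ldha (lactate dehydrogenase), chr7:46845554-46845803, plus strand: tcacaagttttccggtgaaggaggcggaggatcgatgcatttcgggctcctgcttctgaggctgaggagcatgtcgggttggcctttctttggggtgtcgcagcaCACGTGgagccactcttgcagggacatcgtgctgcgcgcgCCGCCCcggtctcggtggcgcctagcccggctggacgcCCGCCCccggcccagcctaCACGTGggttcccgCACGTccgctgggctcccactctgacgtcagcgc

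Such windows were found for 32 of the 34 members. ACGTG was in the window of 13 members (40.6%), against 18.5% of the genes with a window, and GGGCGG in that of 23 (71.9%), against 35.4%. CACGTG, the E-box, which contains ACGTG, was in 2 (6.25% against 6.86%), Pfkm and Ldha, and CCAAT in 14 (43.8% against 37.5%). A gene with several windows counts if any holds the motif. The genes with a window, 27025 in all, were not limited to those tested here or matched for G and C. With the first window alone ACGTG was in 34.4% of members and 16.6% of genes. The 13 measured members with ACGTG had a median diet difference of -0.06 and 11 of them were lower in HGI. The 18 without it had a median of 0.00 with 9 lower. Of all genes tested 47.4% were lower, and the share among all genes that hold ACGTG was not counted. Without HGI 9 and HGI 10, Ldha, Pgm1 and Pgam1 of those 11 were at 0.06, 0.01 and 0.00, and the rest stayed below 0. Of those 9, Ldhb and Pfkp were then at 0.03 and 0.04, and the rest stayed below 0. Of the glycogen genes, Pygl, Pygb, Ugp2, Pgm1 and Pgm2 hold ACGTG in their windows, and Gys1 and Gbe1 do not. The 11 lower members with ACGTG include these glycogen genes. Gbe1, whose window holds neither of the capitalised motifs, has 48.8% G and C, and Pygl has 69.2%. A match describes the letters of this window and was not tested against the diet.

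Of the glucose transporters, Slc2a3, which encodes the high-affinity transporter GLUT3, was lower in HGI. On the LGI arrays it ran from -0.08 through a median of 0.00 to 0.34, and on the HGI arrays from -0.36 through -0.10 to 0.01. The groups overlapped, with 8 of 9 HGI arrays below the LGI median, and the upper end of LGI was set by LGI 1. The means were 0.04 ± 0.15 (SD, n = 8) in LGI and -0.13 ± 0.11 (SD, n = 9) in HGI. The difference was -0.18 ± 0.07 (SE; unadjusted p = 0.0171, adjusted p = 0.566). It was -0.19 without HGI 9 and HGI 10 and -0.13 without LGI 1. Starting from Agilent's own processed signals it was -0.37.

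Slc2a1, the gene of GLUT1, the transporter of basal glucose uptake, had the highest difference of the 33, and 3 arrays stood far above the rest. LGI ran from -0.74 through -0.56 to 0.41, and HGI from -0.67 through -0.39 to 1.23. The highest arrays were HGI 9 at 1.23, HGI 10 at 0.89 and LGI 9 at 0.41, and the remaining 14 lay between -0.74 and -0.11. The means were -0.44 ± 0.36 (SD, n = 8) in LGI and -0.06 ± 0.66 (SD, n = 9) in HGI. The difference was 0.38 ± 0.23 (SE; unadjusted p = 0.117) and dropped to 0.06 ± 0.13 without HGI 9 and HGI 10. It was 0.50 without LGI 9 alone (unadjusted p = 0.0354), and 0.18 ± 0.09 without all 3 (unadjusted p = 0.0536). Its level on HGI 9 was 1.72 above the median of the other 15 arrays. The same 2 arrays carry the seminal vesicle genes, and their mean over 6 endothelial markers, -0.35 and -0.25, lay below the 0.02 to 0.24 of the other arrays. The part of other tissue in this value was not tested.

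Slc2a4, the insulin-responsive transporter, ran from -0.38 through 0.15 to 0.55 in LGI and from -0.40 through 0.02 to 0.29 in HGI. The groups overlapped, with LGI 4 at 0.55 and LGI 5 at 0.39 above all HGI arrays, and the lowest values were those of HGI 10, LGI 9 and HGI 9. The difference was -0.17 ± 0.12 (SE; unadjusted p = 0.163), and -0.08 without HGI 9 and HGI 10.

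**Figure D2:**
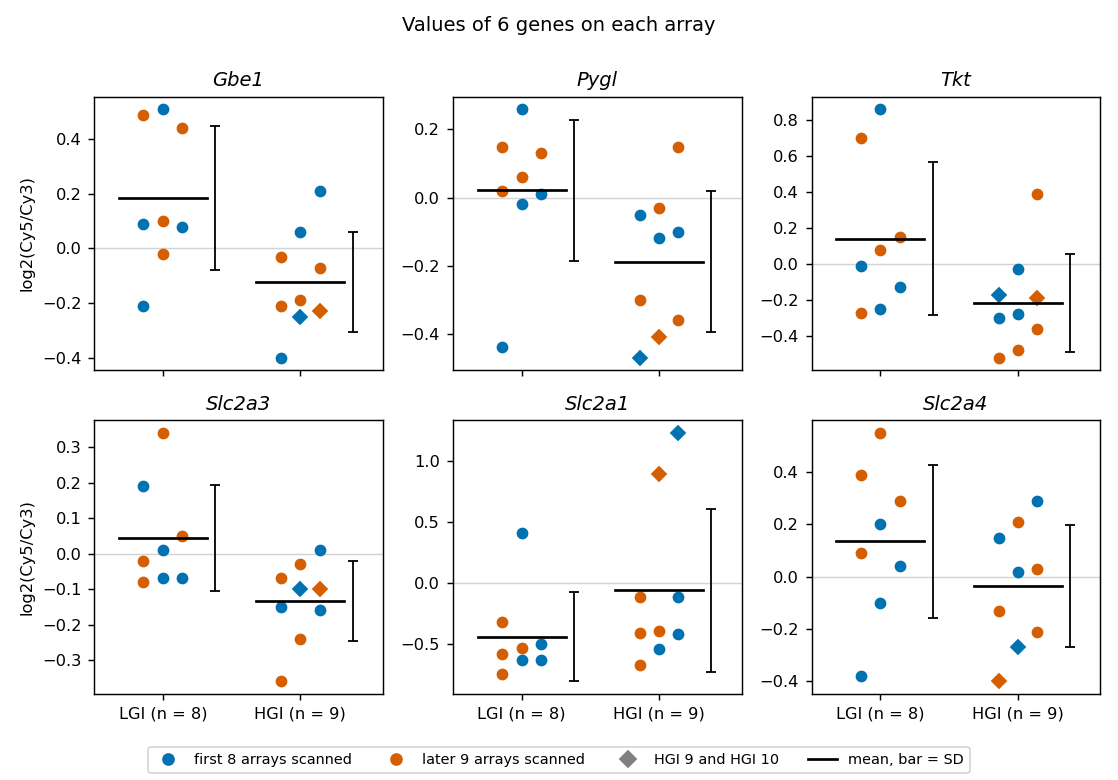
Log2(Cy5/Cy3) on each array (vertical axis) for Gbe1, Pygl, Tkt, Slc2a3, Slc2a1 and Slc2a4 in LGI (n = 8) and HGI (n = 9); colour gives the group of scans, diamonds are HGI 9 and HGI 10, lines are means and bars are SD. The diets overlap in each panel, and HGI 9 and HGI 10 lie at 1.23 and 0.89 for Slc2a1.

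The 9 genes from hexokinase to triose phosphate, which turn glucose into 3-carbon sugars, were split: 5 lower, 4 higher, median -0.03, and 0 with an unadjusted p under 0.05. Hk1, the hexokinase of most tissues, differed by 0.06 ± 0.06 (SE), and Hk2, the insulin-regulated hexokinase of fat and muscle, by -0.12 ± 0.13. Hk2 was far more spread in LGI, from -0.46 to 0.63 with an SD of 0.42, than in HGI, from -0.23 to 0.13 with an SD of 0.13. LGI 4 and LGI 1, at 0.63 and 0.61, were the highest, and without LGI 4 the difference was -0.03. The difference in spread was not tested.

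Gpi1, which makes fructose 6-phosphate, differed by 0.06 ± 0.07 on the probe used and by 0.34 ± 0.23 on its other probe. The 3 phosphofructokinase subunits, which form the committed step of glycolysis, lay at -0.07 ± 0.06 for Pfkl, -0.03 ± 0.07 for Pfkp and -0.09 ± 0.06 for Pfkm. In the authors' deposited values Pfkl was at -0.17. Pfkm was at 0.00 to 0.36 in LGI and -0.10 to 0.16 in HGI, with 7 of 9 HGI arrays below the LGI median. The aldolases, which split fructose 1,6-bisphosphate, differed by -0.11 ± 0.09 for Aldoa and 0.02 ± 0.08 for Aldoc. Tpi1, which interconverts the triose phosphates, had the highest difference of this branch, 0.13 ± 0.11. HGI 1, HGI 2, HGI 3 and HGI 4 were at 0.26 to 0.43 and the other 5 HGI arrays at -0.24 to 0.12, while LGI ran from -0.38 to 0.35.

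The later steps of glycolysis, in which triose phosphate is oxidised to pyruvate and ATP is recovered, showed small differences. Its 5 measured genes differed by -0.06 to 0.06, and the unadjusted p was 0.423 or more for each. Pgk1, the first ATP-forming kinase of the pathway, was at 0.06 ± 0.07 (SE), and its highest value, 0.38, came from HGI 9. Without HGI 9 and HGI 10 it was at 0.00. Pgam1, the phosphoglycerate mutase, was at -0.03 ± 0.07, the enolases Eno1 and Eno3 at -0.06 ± 0.09 each, and the pyruvate kinase Pkm at -0.06 ± 0.07. For Eno3, 8 of 9 HGI arrays lay below the LGI median of -0.01, yet LGI reached down to -0.45 and HGI up to 0.17. For Pkm the other tested probe gave 0.01 ± 0.08, opposite in sign. Over the 13 genes with several tested probes, 14 of 15 other probes had the sign of the probe used.

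The lactate dehydrogenases, which interconvert pyruvate and lactate, were also near 0. Ldha ran from -0.10 through 0.25 to 0.43 in LGI and from -0.30 through 0.22 to 0.41 in HGI, where HGI 9 and HGI 10 were the lowest at -0.30 and -0.16. Its difference was -0.05 ± 0.10 (SE), and 0.06 without those 2 arrays. Ldhb differed by -0.02 ± 0.08 and by 0.03 without them.

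The 3 genes of the oxidative pentose phosphate arm, which makes NADPH, had differences from 0.00 to 0.15, and 0 of 3 reached an unadjusted p under 0.05. G6pdx, the rate-limiting dehydrogenase, ran from -0.39 through -0.20 to 0.22 in LGI and from -0.21 through 0.00 to 0.15 in HGI. The HGI arrays lay within the LGI range, and 8 of 9 were above its median. The difference was 0.15 ± 0.08 (SE; unadjusted p = 0.0916, adjusted p = 0.703), 0.15 without HGI 9 and HGI 10, and 0.20 without LGI 7, the highest LGI array (unadjusted p = 0.0154). Pgls, the lactonase of the next step, differed by 0.09 ± 0.07 with 8 of 9 HGI arrays above the LGI median. Pgd, which forms ribulose 5-phosphate, differed by 0.00 ± 0.08.

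In the non-oxidative arm the largest difference was that of Tkt, the transketolase, which moves 2-carbon units between sugars. Tkt ran from -0.27 through 0.03 to 0.86 in LGI and from -0.52 through -0.28 to 0.39 in HGI. LGI 2 and LGI 4, at 0.86 and 0.70, stood above the rest of LGI, and HGI 7, at 0.39, above the rest of HGI, where 8 of 9 arrays were below the LGI median. The means were 0.14 ± 0.42 (SD, n = 8) and -0.22 ± 0.27 (SD, n = 9). The difference was -0.36 ± 0.15 (SE; unadjusted p = 0.0293, adjusted p = 0.604). It was -0.36 without HGI 9 and HGI 10, and -0.25 without LGI 2 (unadjusted p = 0.0770). A further Tkt probe gave -0.21 ± 0.10. Taldo1, the transaldolase that works beside it, differed by 0.01 ± 0.08. Rpia, the ribose 5-phosphate isomerase, was at 0.00 ± 0.09, and Rpe, the epimerase, at 0.14 ± 0.09, with 7 of 9 HGI arrays above the LGI median. In the authors' deposited values Rpe was at -0.06.

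All 7 glycogen genes had lower means in HGI (47.4% of all genes did), with differences of -0.31 to -0.03 and a median of -0.08 against 0.01 over all genes. An unadjusted p under 0.05 was reached by 2 of them, Gbe1 and Pygl (7.74% of all genes), and 0 passed after adjustment. Without HGI 9 and HGI 10, 6 of 7 were below 0, the exception being Pgm1 at 0.01. With median centring 6 of 7 were below 0, and with Agilent's processed signals the branch median was -0.22. In those signals Pgm2 was at -0.47 and Gys1 at -0.28, against -0.07 and -0.09 in the fit as reported. Gbe1, Pygl, Pygb, Ugp2 and Pgm1 moved little, to -0.33, -0.22, -0.11, -0.07 and -0.04.

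Gbe1, the branching enzyme, ran from -0.21 through 0.10 to 0.51 in LGI and from -0.40 through -0.19 to 0.21 in HGI. LGI 2, LGI 1 and LGI 4 were high at 0.44 to 0.51, LGI 9 was low at -0.21, and 8 of 9 HGI arrays were below the LGI median. The means were 0.19 ± 0.27 (SD, n = 8) in LGI and -0.12 ± 0.19 (SD, n = 9) in HGI. The difference was -0.31 ± 0.10 (SE; unadjusted p = 0.00695, adjusted p = 0.520), the lowest p of the 33. It stayed between -0.37 and -0.26 with any 1 array left out, and was -0.28 without HGI 9 and HGI 10.

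Pygl, the liver-type phosphorylase, which releases glucose units from glycogen, ran from -0.44 through 0.04 to 0.26 in LGI and from -0.47 through -0.12 to 0.15 in HGI. LGI 9, HGI 9 and HGI 10 held the lowest values, at -0.44, -0.47 and -0.41. The means were 0.02 ± 0.21 (SD, n = 8) and -0.19 ± 0.21 (SD, n = 9). The difference was -0.21 ± 0.09 (SE; unadjusted p = 0.0386, adjusted p = 0.629), -0.14 without HGI 9 and HGI 10 (unadjusted p = 0.149), and -0.28 without LGI 9. A further Pygl probe gave -0.32 ± 0.13. Pygb, the brain-type phosphorylase, was at -0.08 ± 0.07 on its brightest probe and at -0.32 ± 0.13 on the other.

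The remaining glycogen genes lay between -0.09 and -0.03. Gys1, the glycogen synthase of tissues other than liver, was at -0.09 ± 0.11 (SE), with 7 of 9 HGI arrays below the LGI median, and at -0.02 without HGI 9 and HGI 10. Ugp2, which makes the UDP-glucose that the synthase uses, was at -0.06 ± 0.08, and at -0.12 without HGI 9 and HGI 10. Pgm1, the phosphoglucomutase that joins glycogen to glycolysis, was at -0.03 ± 0.09, and Pgm2, its paralog, at -0.07 ± 0.07 over the arrays, 11 of which were well above background for it.

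The diet difference was also taken within each group of scans. In the first 8 arrays 20 of 33 members (60.6%) were lower in HGI, against 48.2% of all genes, with a median of -0.01. In the later 9 it was 23 of 33 (69.7%), against 46.3%, with a median of -0.04. The 7 glycogen genes were below 0 before rounding in both groups, at -0.21 to 0.00 in the first 8 and -0.40 to -0.02 in the later 9. In the first 8 several were near 0: Gys1 at -0.01 ± 0.15 (SE), Pygb at -0.01 ± 0.10, Pgm1 at -0.04 ± 0.14 and Pgm2 at 0.00 ± 0.10. Gbe1 was at -0.21 ± 0.17 and -0.40 ± 0.12 (SE), Tkt at -0.31 ± 0.21 and -0.40 ± 0.20, Slc2a3 at -0.11 ± 0.09 and -0.23 ± 0.11, and Slc2a1 at 0.37 ± 0.37 and 0.40 ± 0.25. HGI 9 is among the first 8 arrays and HGI 10 among the later 9, so that each group holds an array that stood apart. Slc2a1 was at 1.23 and 0.89 on them, and its difference over both groups of scans was 0.06 without them. The groups of scans were not refitted without these arrays.

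Slc2a4 and Hk2 had opposite signs in the 2 groups of scans. For Slc2a4 the difference was 0.11 ± 0.15 (SE) among the first 8 arrays and -0.43 ± 0.13 among the later 9. In the later 9 its LGI arrays were at 0.09, 0.29, 0.39 and 0.55, and its HGI arrays at -0.40, -0.21, -0.13, 0.03 and 0.21. For Hk2 it was 0.17 ± 0.10 among the first 8 and -0.39 ± 0.19 among the later 9, where LGI 4 and LGI 1 lay at 0.63 and 0.61 and LGI 5 at -0.46. The difference between the groups, tested as an interaction in limma, was -0.54 ± 0.21 for Slc2a4 (unadjusted p = 0.0182, adjusted p = 1) and -0.56 ± 0.24 for Hk2 (unadjusted p = 0.0290, adjusted p = 1). These were 2 of 33 members (6.06%) with an unadjusted p under 0.05, against 1.03% of all genes, and 0 genes passed after adjustment. Levels themselves, with diet held, differed between later and first scans at an unadjusted p under 0.05 for 4 members (12.1%), against 3.81% of all genes. They were Eno1 at -0.24 ± 0.07, Aldoc at -0.16 ± 0.07, Pkm at -0.14 ± 0.06 and Pygb at 0.16 ± 0.07, each with an adjusted p of 1.

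**Figure D3:**
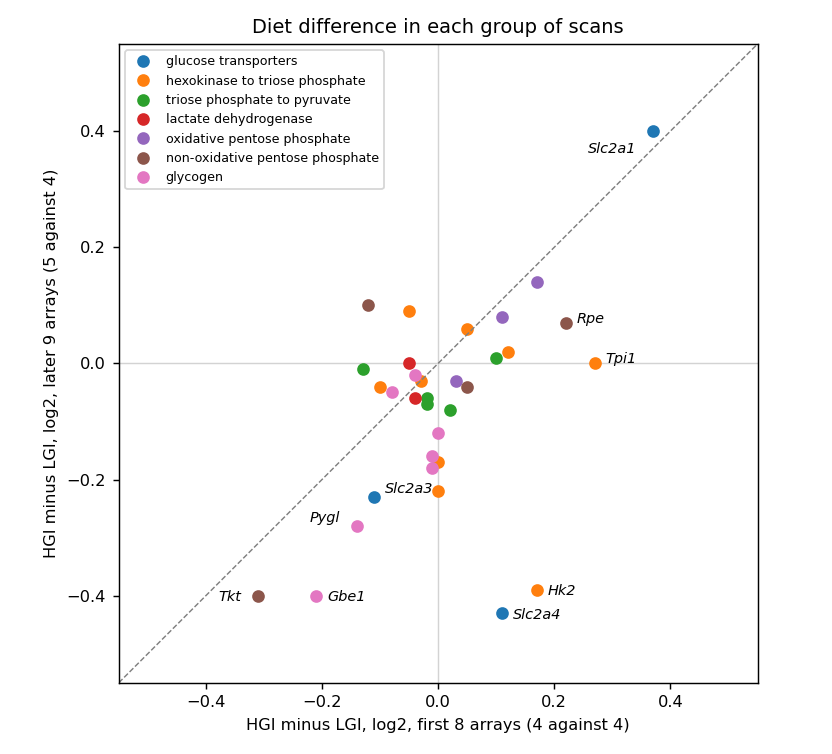
Diet difference of each of the 33 genes in the later 9 arrays (vertical axis, log2) against that in the first 8 arrays (horizontal axis, log2), coloured by pathway branch; the dashed line marks equal differences. Hk2 and Slc2a4 lie at lower right, at 0.17 and 0.11 in the first 8 and -0.39 and -0.43 in the later 9, and Slc2a1 near the line. Slc2a1 had its highest values on HGI 9, in the first 8, and on HGI 10, in the later 9.

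Members varied unequally among samples of 1 diet. The within-diet SD of Slc2a1 was 0.55, above that of 98.6% of all genes tested, and that of Tkt 0.35, above 95.3%. Pfkl and Pfkm were among the steadiest genes on the array, with an SD of 0.09 and 0.10, at the 2.1 and 4.7 percentile. The spread of several glycogen genes was then set beside the mean of the 12 adipocyte markers. That mean ran from -0.25 through 0.03 to 0.17 in LGI and from -0.28 through -0.15 to 0.00 in HGI, so that it lay lower in HGI, and lowest on HGI 10, HGI 9, HGI 4 and LGI 9. With diet held in the model, 9 of 33 members (27.3%) were associated with it at an unadjusted p under 0.05, against 12.6% of all genes. The slope was above 0 for 18 of 33, against 47.9% of all genes.

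Of those 9 members, 5 were glycogen genes, all with slopes above 0. The fitted slope, in log2 units of the gene per log2 unit of the marker mean, was 1.44 ± 0.28 (SE; adjusted p = 0.0661) for Pygl, 1.08 ± 0.23 (adjusted p = 0.0745) for Pygb and 1.55 ± 0.34 (adjusted p = 0.0902) for Gys1. Gbe1 had a slope of 1.04 ± 0.41 and Pgm1 of 0.91 ± 0.34. None of the 33 passed an adjusted p of 0.05, which 0.0331% of all genes did. Without HGI 9 and HGI 10 the slopes were 1.32 for Pygl, 1.14 for Pygb and 1.46 for Gys1. With median centring 18 members passed, among 4387 genes, so that this association depends on the normalization. The other 4 were Slc2a4 at 1.02 ± 0.48, Ldha at 0.86 ± 0.41, Aldoc at -0.73 ± 0.32 and Slc2a1 at -2.84 ± 0.83. Without HGI 9 and HGI 10 the slope was 0.68 for Slc2a4 (unadjusted p = 0.199) and 0.35 for Ldha (unadjusted p = 0.365), neither any longer under 0.05. At that setting it was -1.07 for Aldoc and -1.40 for Slc2a1. Eno1, at -1.03 (unadjusted p = 0.015), and Slc2a3, at 0.69 (unadjusted p = 0.0445), were then under 0.05. The count without those arrays was again 9 of 33 (27.3%), against 9.89% of all genes. The part of the marker mean in the diet difference of these genes was not tested.

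**Figure D4:**
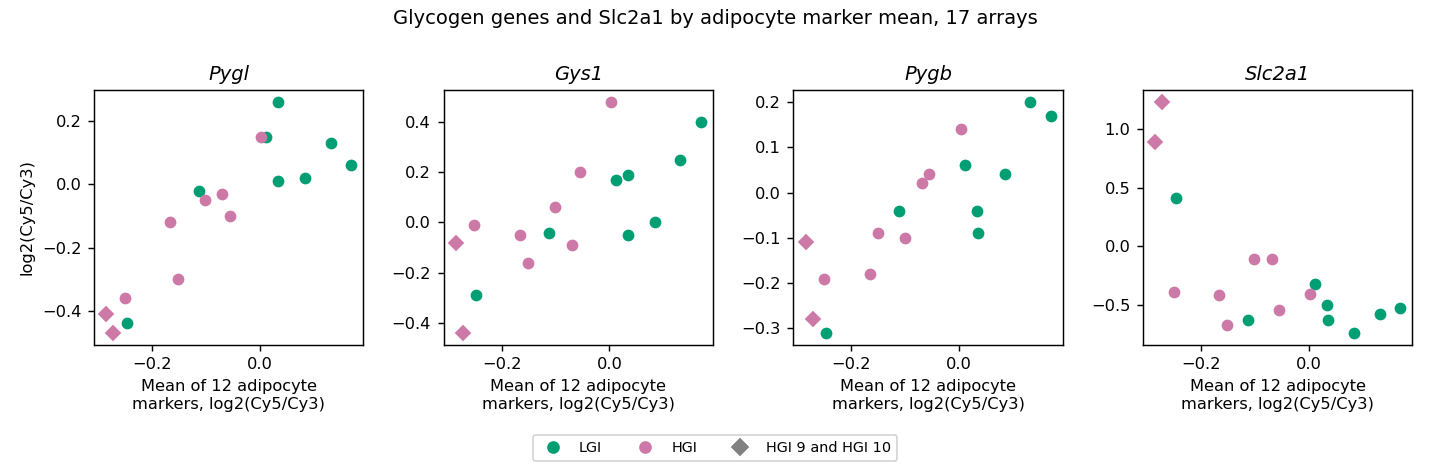
Log2(Cy5/Cy3) of Pygl, Gys1, Pygb and Slc2a1 (vertical axes) against the mean log2(Cy5/Cy3) of 12 adipocyte markers (horizontal axis) on the 17 arrays, by diet; diamonds are HGI 9 and HGI 10. Pygl is lowest, at -0.47 to -0.41, on HGI 9, LGI 9 and HGI 10, and Slc2a1 is highest on the same 3 arrays, at 0.41 to 1.23.

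Macrophages, another cell type of this depot, were read from 11 tested markers of 12 listed, whose mean ran from -0.22 through -0.10 to 0.09 in LGI and from -0.14 through 0.09 to 0.44 in HGI. With diet held, 2 of 33 members (6.06%) were associated with it at an unadjusted p under 0.05, against 9.03% of all genes, and 0 after adjustment, which 0.0551% of all genes passed. Tkt was lower where that mean was higher, with a slope of -1.28 ± 0.45 (SE; adjusted p = 0.359), and Tpi1 was higher, with a slope of 0.80 ± 0.36 (adjusted p = 0.516). Without HGI 9 and HGI 10 the slope was -1.39 for Tkt (unadjusted p = 0.00902) and 0.67 for Tpi1 (unadjusted p = 0.0829). At that setting 1 of 33 members (3.03%) was under 0.05, against 8.12% of all genes. The part of the macrophage mean in the diet differences of Tkt and Tpi1 was not tested.

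Other genes of the same pathways were read from a list of 86 further enzymes and regulators, of which 69 could be tested. Of these 26 were lower (37.7%, against 47.4% of all genes) and 43 higher in HGI, with a median of 0.03. In 8 (11.6%, against 7.74%) the unadjusted p was under 0.05, 4 in each direction, with 0 passing after adjustment. Arrdc4, an arrestin-like gene induced by glucose, had the lowest p: it ran from -0.36 through -0.15 to 0.00 in LGI and from -0.11 through 0.09 to 0.24 in HGI. The groups overlapped, yet all 9 HGI arrays lay above the LGI median, with a difference of 0.20 ± 0.07 (SE; unadjusted p = 0.00662, adjusted p = 0.520). Gys2, the glycogen synthase best known from liver, had the largest of these 8 differences, 0.42 ± 0.18, and ran from -0.79 through -0.35 to 0.32 in LGI and from -0.52 through 0.36 to 0.82 in HGI. Its direction was opposite to that of Gys1, and without HGI 9 and HGI 10 it was 0.60.

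The other higher genes were Hk3, a hexokinase of blood cells, at 0.19 ± 0.08, and Minpp1, an inositol polyphosphate phosphatase, at 0.14 ± 0.06. The lower ones were the phosphorylase kinase subunits Phkg1 at -0.20 ± 0.08 and Phka2 at -0.16 ± 0.08, whose kinase activates glycogen phosphorylase, Pdk2, which inhibits pyruvate dehydrogenase, at -0.17 ± 0.07, and H6pd, the glucose 6-phosphate dehydrogenase of the endoplasmic reticulum, at -0.17 ± 0.08. By list, 9 of 24 further glycogen genes, 9 of 27 of glycolysis and glucose entry, 2 of 6 of the pentose phosphate pathway and 6 of 12 regulators were lower in HGI.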

How the data were processed

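Per the file headers, the scanner files hold spot intensities in Cy5 and Cy3 written by Agilent Feature Extraction (9.1.3.1 in the headers, 9.5.1.1 in the submitters' processing notes), with quality flags. The authors also deposited log2 values, which served as an alternative. How these were normalized and centred was not given in the sources used. From 500 ng of total RNA each sample was labelled with both dyes, per the labels' protocols, and 2 further arrays excluded by the authors were not analysed here.

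Intensities were corrected by normexp (offset 50) and normalized by loess within each array in limma 3.58.1 (R 4.3.3, data.table, version 1.17.8), with control and outlier spots at weight 0. Of 41174 probes, 25515 were well above background in Cy5 on at least 8 arrays. Genes were named through RefSeq accessions or symbols. Diets were compared with lmFit and eBayes over 17 arrays without covariates, with Benjamini-Hochberg adjustment over 18134 genes and a threshold of 0.05. Marker means and the group of scans entered as covariates beside diet. The fit was also run on simulated data with the means and spread of the real genes. Figures and promoter counts used Python 3.11.15, matplotlib 3.10.9 and pandas 2.3.3. All 33 measured members were named, and of the further genes those with an unadjusted p under 0.05. Members and lists were chosen with earlier results of these data known.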

Additional observations from a re-analysis of the deposited data

Results flagged for a closer look

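Each member's values were searched, within each diet, for an array far from the others by Dixon's test, which marks about 1 in 20 groups by chance. Of 66 groups 6 held such an array. Slc2a1 on LGI 9 was at 0.41, with the next LGI array at -0.32. Pygl on the same array was at -0.44, with the next at -0.02, and LGI 9 also had the lowest adipocyte marker mean of its diet, -0.25. On LGI 9 the mean of 6 tested epididymis and sperm markers, -0.96, was the highest of all arrays, with LGI 1 next at -1.15. The part of other tissue in these values was not tested. Pgk1 was at 0.30 on LGI 4, with the next LGI array at 0.02, and at 0.38 on HGI 9, with the next HGI array at 0.16. Ldhb on HGI 9 was at -0.41, with the next at -0.11. Gpi1 on HGI 2 was at -0.51, with the next at -0.25.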

How the results depend on the processing

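In the diet comparison 35 alternatives were run, 17 of which left out 1 array each, and 0 of the members were called in any of them. Over all genes 0 were called in the comparison as reported, 1 (F3) with Cy5 intensities alone, 1 (F3) with array weights, and 0 to 3 with 1 array left out, the 3 (Agt, Cp and F3) without LGI 7. The branch medians moved beyond the spread between replicates in 3 cases: glucose transporters to 0.11 in the first 8 arrays, hexokinase to triose phosphate to 0.04 without HGI 9 and HGI 10, and glycogen to -0.22 with Agilent's processed signals. In the last case Pgm2 and Gys1 moved most. Of 1152 member differences recomputed, 78 changed sign and 5 moved beyond the spread within a diet (Slc2a3, Slc2a4, Pfkl, Rpe and Pgm2). Gbe1, Slc2a3, Tkt and Pygl kept their sign in all alternatives run. Other members with smaller differences did too, among them Hk1, Pfkl, Pgls and Ugp2. The genes named first were picked by their p in these same data, and the alternatives share arrays. A kept sign therefore adds no support for them. The number of genes associated with the macrophage marker mean, 10 as reported, was 1 without HGI 9 and HGI 10, 1302 with median centring, 6 with the scan group as a further covariate, 4 with no filter, and 0 to 31 with 1 array left out; of the members 2 were called with median centring, G6pdx and Tpi1. For the adipocyte marker mean the number, 6 as reported, was 4387 with median centring, 2 with the scan group added, and 1 to 63 with 1 array left out. Of the members 18 were called with median centring and 0 to 2 with 1 array left out: Pygb and Pygl without LGI 7, Gys1 and Pygl without HGI 4. The cause of these shifts was not tested.

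Same-numbered arrays of the 2 diets deviated together (correlation over 0.1) in 3 of 7 pairs, with a range of -0.38 to 0.26, so the numbers were not taken to pair the samples. With the replicate number as a block, over 14 arrays, 0 genes were called and 3 members had an unadjusted p under 0.05, against 2 in the same arrays with no replicate block. The slide as a block was not run, since no slide was recorded as holding over 1 array. Signal over background limits Pgm2 and Aldoc, which were near background on some arrays, and Gapdh, which has no value. The 95% confidence intervals of the members reach 0.12 to 0.48 to either side before adjustment for the number of genes. A difference smaller than its own interval's reach could not be told from 0. A larger one, such as Gbe1 at -0.31, still did not pass after adjustment.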
